A study of Mus musculus with 8 samples.

Results

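The 9 microRNAs (miRNAs) described here gave the brightest signals in culture medium of primary mouse myocytes, miR-206-3p set aside. They are the mouse miRNAs mmu-miR-8110, mmu-miR-3960, mmu-miR-5126, mmu-miR-1224-5p, mmu-miR-2861, mmu-miR-6931-5p, mmu-miR-6769b-5p, mmu-miR-211-3p and mmu-miR-6366, named without the mouse prefix from here on. They were chosen by their mean scaled signal over all 8 arrays, the highest of 1881 mouse miRNAs on the array, so their brightness is a description and carries no test. A rank over the whole array gave these same 9, in places 1 to 7, 9 and 10, with miR-206-3p in place 8. The label "late-discovered" holds by number for 8 of the 9, whose miRNA number is 1000 or above. It does not hold for miR-211-3p. All 9 were detected on all 8 arrays, as were 423 of the 1881.

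Each array held the small RNA of one medium, and the groups are written as bottom chamber/insert of a transwell co-culture: G93A/G93A (n = 3), G93A/WT (n = 3) and WT/WT (n = 2). G93A cells came from hSOD1(G93A) mice, which carry a mutant human SOD1 transgene and develop a form of amyotrophic lateral sclerosis, and WT cells from hSOD1(WT) mice, which carry the normal human SOD1 transgene. All groups therefore held cells with a human SOD1 transgene, and cells without one were not analysed here. Per the labels, cells were myoblasts of the hind limb of pups aged 1 to 3 days, labelled male, seeded at 2.5 (bottom) and 1.5 (insert, pore size 0.4 µm; both in 1e5 cells), without further treatment. The supernatant was taken at 2 days in vitro, when proliferation medium with 10% foetal bovine serum gave way to differentiation medium with 2% horse serum; the labels do not name the one collected. RNA from 600 µl of medium was pooled per sample and 150 ng of small RNA (18 to 26 nucleotides) was labelled with Cy3. Since 150 ng was labelled from every sample, the arrays compare the make-up of the small RNA and not its amount per volume of medium, and more release by cells cannot be told apart from more cells. Medium without cells was not analysed here, and a probe reads a bovine or equine miRNA of the same sequence as it reads the mouse one.

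A miRNA is a short RNA cut from a hairpin precursor, and its seed, bases 2 to 8, is the part that mainly pairs with target messenger RNAs. Muscle cells release miRNAs into their surroundings inside vesicles and bound to proteins, and muscle-enriched miRNAs such as miR-206 are the ones usually followed there. MiRNAs are numbered roughly in the order in which they were registered, so high numbers mark sequences found late, many of them in deep sequencing data. Brightness on an array depends on how strongly each probe binds its target as well as on how much target there is, so the signals of different miRNAs give no order of amounts.

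The mature sequences, 5′ to 3′ with the seed in capitals, are shown because the 8 that could be matched by name share a feature that the choice by brightness did not use, runs of G. They are credited to RefSeq on the mouse build GRCm38.p6, and miR-206-3p, which the choice leaves out, is added for contrast.
miR-8110, chr8:89024791-89024811, plus strand: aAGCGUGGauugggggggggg
miR-5126, chr1:84695890-84695911, plus strand: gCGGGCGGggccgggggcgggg
miR-1224-5p, chr16:20604452-20604472, plus strand: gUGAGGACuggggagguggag
miR-6931-5p, chr11:102999896-102999916, minus strand: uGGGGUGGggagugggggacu
miR-2861, chr2:32712819-32712837, minus strand: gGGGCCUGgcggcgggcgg
miR-6769b-5p, chr8:71631083-71631102, minus strand: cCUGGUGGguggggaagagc
miR-211-3p, chr7:64205868-64205888, plus strand: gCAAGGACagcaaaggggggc
miR-6366, chr16:18165093-18165114, minus strand: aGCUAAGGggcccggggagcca
miR-206-3p, chr1:20679055-20679076, plus strand: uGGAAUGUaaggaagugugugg
Of miR-3960 only the hairpin is shown, with a GGC repeat in capitals.
miR-3960 hairpin, chr2:32712900-32712972, minus strand: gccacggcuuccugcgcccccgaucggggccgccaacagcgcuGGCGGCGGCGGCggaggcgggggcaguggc

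Every one of the 8 mature sequences held a run of at least 4 consecutive G, against 182 of the 1608 array miRNAs with a matched mature sequence (11.3%). The longest run, 10 G at the 3′ end, belonged to the brightest miRNA, miR-8110. miR-211-3p held a run of 6, miR-5126 and miR-6931-5p runs of 5, and the other four runs of 4, while miR-206-3p reached 2. G made up a median of 64.3% of the bases in the 8 (45.5% to 77.3%), against 26.3% over the 1608, and G plus C made up 71.4% against 52.2%.

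Runs of G were more frequent among all miRNAs detected in these media, not in the 9 alone. A run of at least 4 was present in 90 of the 359 matched miRNAs detected on all 8 arrays (25.1%), in 82 of 351 with the 9 left out (23.4%), and in 70 of the 1113 detected on no array (6.29%). By longest run, the share of miRNAs detected on all 8 arrays was 9.79% at 0 or 1 G, 19.1% at 2, 32.6% at 3, 49.7% at 4, 45.7% at 5, and 3 of 4 miRNAs at 6 or more. These shares count in the bright miRNAs chosen here, whose choice made detection sure. They were 4 of the 71 detected at 4 G, 2 of the 16 at 5 and 2 of the 3 at 6 or more. With the 9 left out, since brightness chose them, the median log2 scaled signal of the detected (defined with the values further on) was 4.56, 5.02, 5.41, 5.50 and 7.31 for runs up to 5 G in the same order, and the 1 remaining miRNA with 6 or more lay at 5.76. Across the 359 detected miRNAs the percent G correlated with the mean log2 scaled signal at r = 0.289, and at r = 0.200 over the 351 without the 9. These are correlations across miRNAs that share the same arrays and base composition, given without a p. The part of base composition in the brightness was not tested.

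**Figure D1:**
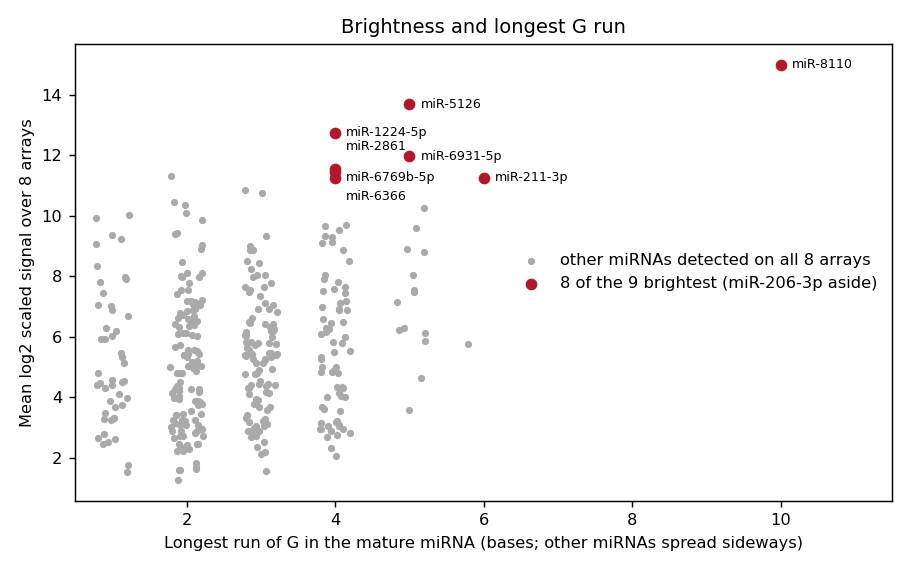
Mean log2 scaled signal over the 8 arrays (vertical axis) against the longest run of G in the mature sequence (horizontal axis, bases), 1 point per miRNA detected on all 8 arrays. The 8 bright miRNAs with a matched sequence (red) have runs of 4 to 10 and lie at the top, whereas most of the other 351 (grey, spread sideways) have runs of 3 or fewer.

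The 8 had no seed in common. Of the array's matched miRNAs, 1 shared a seed with any of them: miR-3091-3p has the seed GGGCCUG of miR-2861 and was detected on 0 arrays. Over their whole length, seed bases included, the longest stretch that any of them had in common was 9 bases, gggugggga, in miR-6931-5p and miR-6769b-5p, followed by the 8 bases gcgggcgg in miR-5126 and miR-2861.

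Most of the 9 hairpins lay far apart, on different chromosomes or stretches of them. Those of miR-2861 and miR-3960 lay on the minus strand of chromosome 2 with 11 bases between them. In mouse osteoblasts these are known as a cluster that works in a loop with the bone transcription factor Runx2, miR-2861 acting on Hdac5 and miR-3960 on Hoxa2. By position, the hairpin of miR-5126 overlapped Dner, a neuronal Notch ligand, that of miR-1224-5p Vwa5b2, that of miR-6931-5p Dcakd and a long noncoding RNA gene, that of miR-6769b-5p Unc13a, which encodes a protein that primes synaptic vesicles, and a long noncoding RNA gene, and that of miR-211-3p Trpm1, a channel gene of pigment cells. The hairpins of miR-8110, miR-3960, miR-2861 and miR-6366 overlapped no gene of the table used. That table gives neither the exons nor the strand of these genes, so exon or intron was not assigned. The hairpin of miR-1224 begins with GU and ends with AG, the ends of an intron; miR-1224 is known as a mirtron, a miRNA cut out by splicing, and in mouse macrophages it is reported to restrain tumour necrosis factor through Sp1. miR-6931 begins and ends with the same bases.

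Of the opposite hairpin arms the array held 4, and none was detected on any of the 8 arrays: miR-1224-3p, miR-6931-3p, miR-6769b-3p and miR-211-5p. The last is the arm for which the locus is known, a miRNA of the melanocyte lineage.

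Whole-array facts bear on the reading. Between 450 and 563 mouse miRNAs were detected per array, and the signals of an array summed to between 115265 and 203040 units. The muscle miRNAs miR-206-3p, miR-133b-3p, miR-133a-3p and miR-1a-3p were detected on all 8 arrays, and miR-208b-3p on none. All arrays came from 1 slide. G93A/G93A arrays shared slide row 2 with WT/WT 2, while G93A/WT arrays shared row 1 with WT/WT 1, so that row and group cannot be told apart between G93A/G93A and G93A/WT. The labels name no litter or culture day, so the p-values measure the spread between these samples.

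The 9 miRNAs took more than all others together: 61.0 ± 2.33% of the summed mouse miRNA signal in G93A/G93A and 57.7 ± 2.56% in G93A/WT (SD, n = 3 each), against 64.4 ± 0.547% in WT/WT (SD, n = 2). By array the share was 62.2%, 62.5% and 58.3% in G93A/G93A, 60.2%, 55.1% and 57.7% in G93A/WT, and 64.7% and 64.0% in WT/WT. Both mutant-containing groups lay below both WT/WT arrays, and they overlapped with each other. miR-8110 alone gave 25.0%, 24.0% and 22.0% in G93A/G93A, 23.1%, 19.6% and 21.8% in G93A/WT, and 25.1% and 25.6% in WT/WT. miR-3960 gave 12.1%, 13.9% and 12.8% in G93A/G93A, 13.1%, 11.3% and 12.1% in G93A/WT, and 13.7% and 11.9% in WT/WT, with all groups overlapping. miR-5126 gave 8.81% to 10.2% over the 8 arrays.

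**Figure D2:**
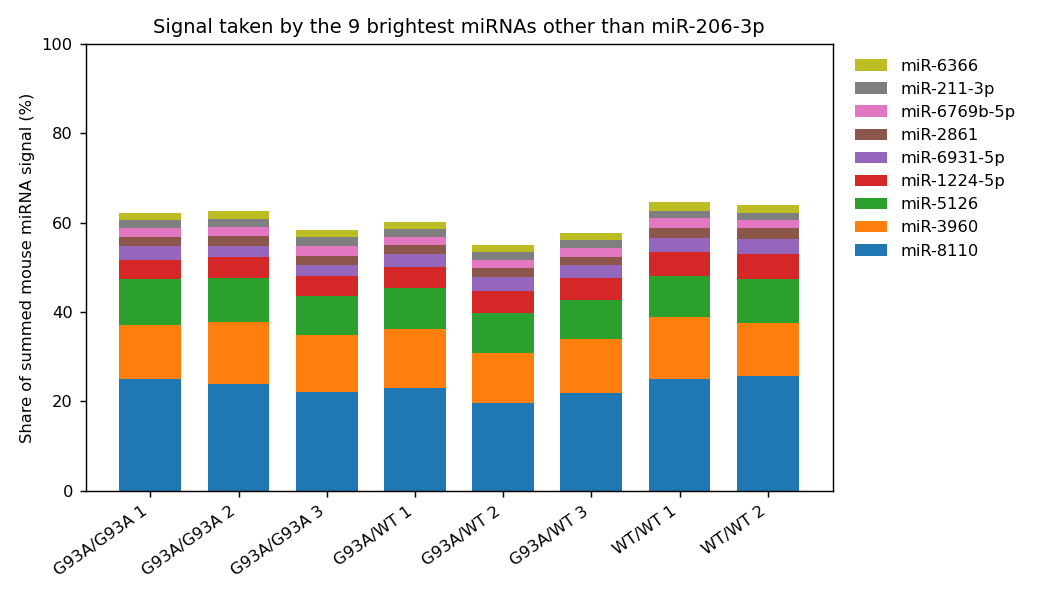
Percent of the summed mouse miRNA signal (vertical axis) on each of the 8 arrays (horizontal axis), stacked by miRNA for the 9. The stacks reach 58.3% to 62.5% in G93A/G93A, 55.1% to 60.2% in G93A/WT and 64.0% and 64.7% in WT/WT.

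The summed share differed by −3.32 percentage points between G93A/G93A and WT/WT (exact permutation test, two-sided, p = 0.2), by −6.67 between G93A/WT and WT/WT (exact p = 0.1) and by 3.35 between G93A/G93A and G93A/WT (exact p = 0.2). No design of 3 against 3 or 3 against 2 arrays can give an exact p below 0.1, and adjusted over the 18 such tests run here these became 0.327, 0.3 and 0.327. Without G93A/G93A 3 the first was −1.98, and without G93A/WT 2 the third was 2.05. Within the slide row that holds both groups the differences were −2.94 for G93A/G93A and −7.06 for G93A/WT, each against 1 WT/WT array and so given without a p. With control features in the denominator G93A/G93A and WT/WT differed by −1.82 (exact p = 0.6), and the authors' deposited table gave −1.25, −2.69 and 1.44 in the same order of comparisons.

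The lower shares were not spread evenly over the 9. The 3 brightest together took 46.2 ± 2.27% in G93A/G93A, 42.6 ± 2.84% in G93A/WT (SD, n = 3 each) and 47.7 ± 0.483% in WT/WT (SD, n = 2), and G93A/G93A overlapped WT/WT. The other 6 took 14.8 ± 0.066% in G93A/G93A, 15.1 ± 0.304% in G93A/WT (SD, n = 3 each) and 16.6 ± 0.0637% in WT/WT (SD, n = 2), with no overlap between any groups. Their differences were −1.83, −1.56 and −0.27 percentage points in the order of comparisons above, each with an exact permutation p of 0.1, the smallest possible. miR-1224-5p and miR-6931-5p carried most of this: miR-1224-5p gave 4.37%, 4.65% and 4.54% in G93A/G93A, 4.83%, 5.07% and 4.86% in G93A/WT, and 5.40% and 5.61% in WT/WT. miR-6931-5p gave 2.93%, 2.49% and 2.37% in G93A/G93A, 2.73%, 3.03% and 2.76% in G93A/WT, and 3.22% and 3.38% in WT/WT.

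Before any scaling, the 9 varied less between arrays than the rest did. Their summed signal was 77451 ± 2401 units in G93A/G93A, 98424 ± 12700 in G93A/WT (SD, n = 3 each) and 82016 ± 10461 in WT/WT (SD, n = 2), while all other mouse miRNAs summed to 49650 ± 6023, 73089 ± 17082 and 45510 ± 6878 units in the same order of groups. G93A/WT over WT/WT was thus 1.20 for the 9 and 1.61 for the rest (exact permutation p = 0.3 and 0.2). The unscaled signal of miR-8110 spanned 28632 to 39746 units, a highest-to-lowest ratio of 1.39, against a median ratio of 1.70 over the 9 and of 2.71 over the 423 miRNAs detected on all arrays. miR-206-3p, close to them in brightness, spanned a ratio of 2.58. The scale factors that equalise the arrays span a ratio of 2.42, and after scaling the median ratio was 1.58 over the 9 and 1.61 over the 423. Whether the brightest signals were near saturation was not assessed here. A control feature of the array, the bright corner, lay in the same order of groups as the summed share of the 9 after scaling: it had 641 to 903 scaled units in G93A/G93A, 459 to 629 in G93A/WT, and 1227 and 1231 in WT/WT, while unscaled it had 659 to 690 in G93A/G93A, 674 to 810 in G93A/WT, and 854 and 1089 in WT/WT. Its part in the differences of the 9 was not tested.

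**Figure D3:**
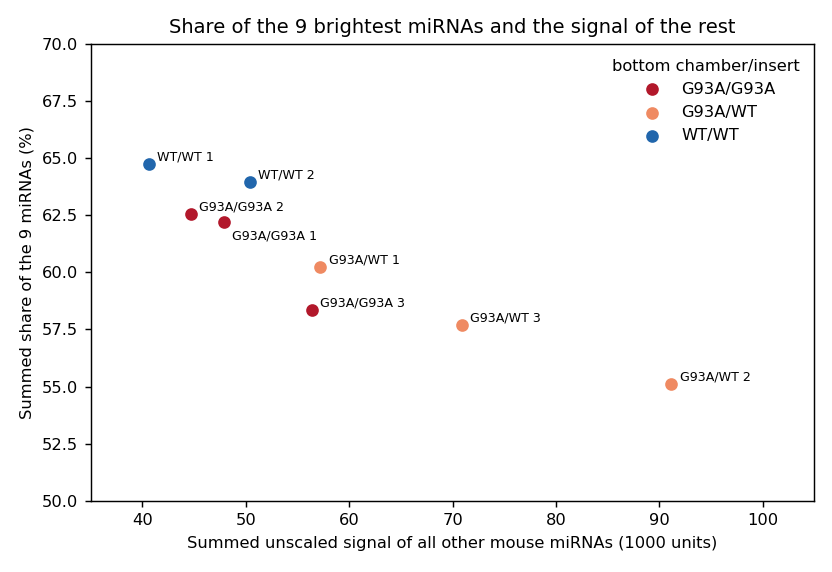
Summed share of the 9 miRNAs (vertical axis, percent) against the summed unscaled signal of all other mouse miRNAs (horizontal axis, 1000 units), 1 point per array. The share is 55.1% on G93A/WT 2, where the rest sums to the most, and 64.7% on WT/WT 1, where it sums to the least; the rest is part of the share's denominator.

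The scaled signals below are gene signals multiplied by 1 factor per array, so that the 75th percentile over the 423 miRNAs detected on all arrays was equal. miR-8110 had 36632, 37493 and 28964 units in G93A/G93A, 30939, 23561 and 27584 in G93A/WT, and 41572 and 40511 in WT/WT. All 6 mutant-containing arrays lay below both WT/WT arrays on this scale. miR-3960 had 17775, 21709 and 16854 units in G93A/G93A, 17538, 13597 and 15375 in G93A/WT, and 22667 and 18778 in WT/WT. Its G93A/WT arrays lay below WT/WT, and G93A/G93A overlapped both.

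miR-5126 had 14985, 15380 and 11616 units in G93A/G93A, 12370, 10605 and 11229 in G93A/WT, and 15375 and 15611 in WT/WT, with G93A/WT below WT/WT. miR-1224-5p, the mirtron arm, had 6405, 7277 and 5972 units in G93A/G93A, 6475, 6099 and 6157 in G93A/WT, and 8941 and 8862 in WT/WT. Here both mutant-containing groups overlapped each other and stood clear of WT/WT. miR-6931-5p did the same, with 4291, 3892 and 3119 units in G93A/G93A, 3667, 3653 and 3497 in G93A/WT, and 5334 and 5340 in WT/WT.

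miR-2861, the cluster partner of miR-3960, had 3146, 3472 and 2646 units in G93A/G93A, 2821, 2405 and 2505 in G93A/WT, and 3704 and 3792 in WT/WT, again with both groups below WT/WT. miR-6769b-5p had 2898, 3118 and 3088 units in G93A/G93A, 2336, 2363 and 2407 in G93A/WT, and 3352 and 2824 in WT/WT. Its G93A/WT arrays were close together and below all others. miR-211-3p had 2629, 2918 and 2405 units in G93A/G93A, 2335, 1990 and 2215 in G93A/WT, and 2840 and 2544 in WT/WT. miR-6366 had 2331, 2534 and 2150 units in G93A/G93A, 2316, 2047 and 2091 in G93A/WT, and 3444 and 2851 in WT/WT. The order of its groups was that of miR-1224-5p, and that of miR-211-3p resembled miR-6769b-5p.

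The order of brightness was fixed at the top and loose at the bottom. Places 1 to 5 went to the same miRNAs on all 8 arrays. miR-2861 was brighter than miR-6769b-5p on 7 of 8 arrays (mean log2 gap 0.12 ± 0.19, SD), and the mean log2 gap was 0.12 ± 0.28 between miR-6769b-5p and miR-206-3p, 0.05 ± 0.28 between miR-206-3p and miR-211-3p, and 0.02 ± 0.17 between miR-211-3p and miR-6366 (SD over 8 arrays), each smaller than its spread. At the limit of the choice, miR-6366 averaged 2471 units and miR-211-3p 2485, against 1851 for miR-7047-5p, 1765 for miR-3473b and 1435 for miR-133b-3p just outside it, and miR-6366 was brighter than miR-7047-5p on 8 of 8 arrays. At the top, miR-8110 averaged 33407, miR-3960 18037 and miR-5126 13396 units.

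The 9 were about as variable as other detected miRNAs. The SD within groups on the log2 scale had a median of 0.15 over the 9 and 0.17 over the 423, and the SD over all 8 arrays 0.24 and 0.25. Among the 9, miR-6769b-5p (0.09) and miR-1224-5p (0.10) had the smallest spread within groups, with 8.04% and 13.2% of the 423 below them. The error that the gene files give for each signal was 7.09% to 7.37% of the signal, as the median over the 9 on each array.

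**Figure D4:**
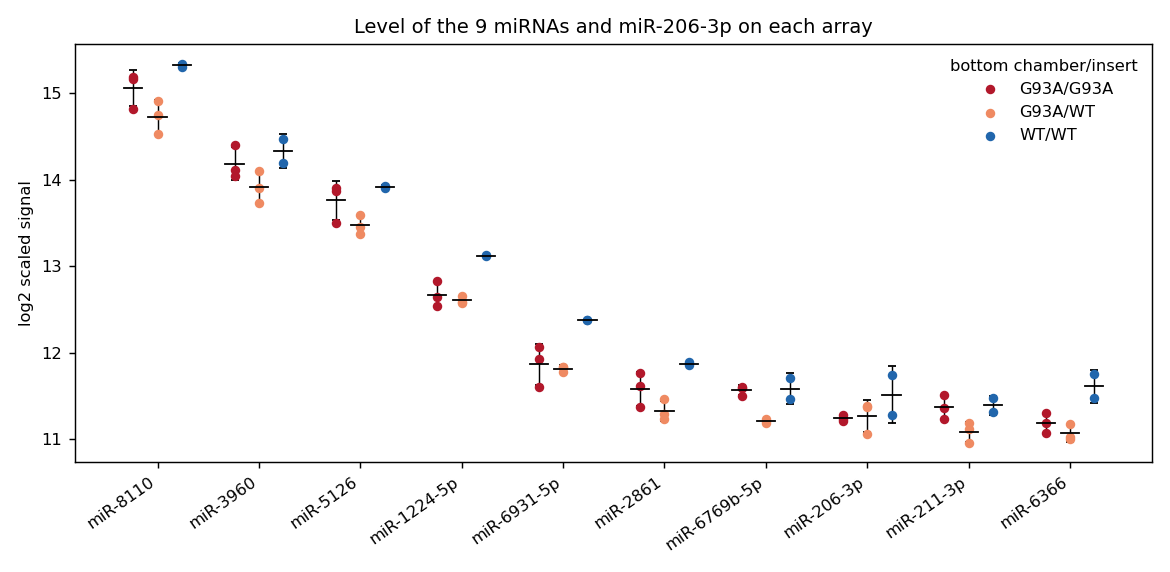
Log2 scaled signal (vertical axis) of the 9 miRNAs and miR-206-3p (horizontal axis), 1 point per array, with the mean (bar) and SD (whisker) of G93A/G93A (n = 3), G93A/WT (n = 3) and WT/WT (n = 2). miR-1224-5p averages 12.67, 12.61 and 13.12, and WT/WT has the highest mean for every miRNA shown on this scale, an order that is not kept without scaling.

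Group differences were tested on the log2 scale with limma over the 538 miRNAs detected on at least 2 arrays, with Benjamini-Hochberg adjustment over all 538. None of the 9 passed at an adjusted p of 0.05 in any of the 3 comparisons. Between G93A/G93A and WT/WT, 8.55% of the 538 passed (3.72% higher, 4.83% lower), between G93A/WT and WT/WT 3.9% (3.16% higher, 0.743% lower), and between G93A/G93A and G93A/WT 10.6% (5.39% higher, 5.2% lower). At an unadjusted p under 0.05, 3, 8 and 2 of the 9 passed in the same order, all of them lower, lower and higher, where 13.4%, 13.8% and 13.6% of the 538 did so in those directions.

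**Figure D5:**
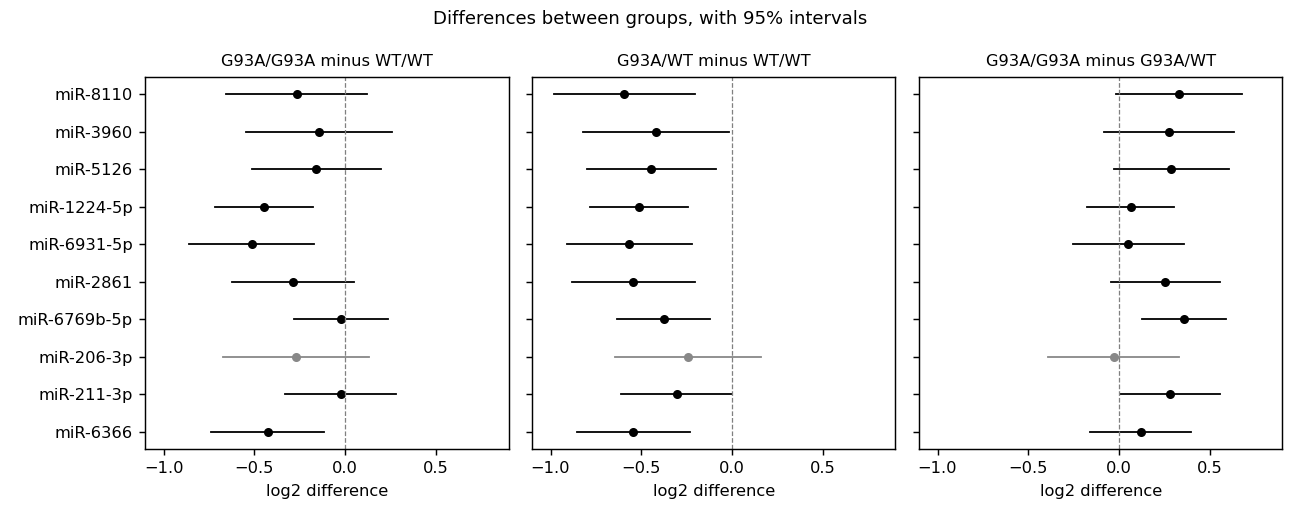
Log2 differences with 95% intervals (horizontal axis) for the 9 miRNAs (black) and miR-206-3p (grey), in G93A/G93A minus WT/WT (left), G93A/WT minus WT/WT (middle) and G93A/G93A minus G93A/WT (right). All 9 lie left of zero in the middle panel at −0.31 to −0.59, and all of them lie right of zero there without scaling.

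In G93A/WT medium against WT/WT medium the 9 lay at a median log2 difference of −0.51, where all 538 had a median of 0.04, and all 9 were below zero (44.1% of the 538) with no overlap of arrays (26% of the 538), although without scaling all 9 turned positive, with the median of the 538 then at 0.79, and miR-211-3p turned when signals were scaled on their sum. miR-1224-5p stood at 12.61 ± 0.05 in G93A/WT (SD, n = 3) and 13.12 ± 0.01 in WT/WT (SD, n = 2), a difference of −0.51 ± 0.11 (SE, adjusted p = 0.0530). miR-6366 differed by −0.54 ± 0.13 (adjusted p = 0.0611), miR-6931-5p by −0.57 ± 0.14 (adjusted p = 0.0703), miR-2861 by −0.54 ± 0.14 (adjusted p = 0.0713) and miR-8110 by −0.59 ± 0.16 (SE, adjusted p = 0.0793). The other four lay between −0.31 and −0.45, with adjusted p from 0.0950 to 0.205. Blocked on slide row, the median over the 9 was −0.53. The fit within row 1 gave the same median, since both set G93A/WT against 1 WT/WT array. The values lie close to the threshold: without G93A/G93A 3, which is in neither group but enters the shared spread, 6 of the 9 passed (miR-8110, miR-5126, miR-2861, miR-1224-5p, miR-6366 and miR-6931-5p), where 27 of the 538 were then lower.

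For medium of G93A/G93A against that of WT/WT the median over the 9 was −0.27, with −0.01 over all 538, and −0.15 without G93A/G93A 3. All 9 lay below zero (50.6% of the 538) and 5 did not overlap WT/WT (22.7% of the 538), but under other scalings only miR-2861, miR-1224-5p, miR-6366 and miR-6931-5p had no positive value: miR-3960, miR-5126, miR-6769b-5p and miR-211-3p turned positive without scaling and with scaling on the sum of signals, and miR-8110 did so in the authors' deposited table, where the median over the 9 was 0.01 as was that over all miRNAs of that table. The lowest were miR-6931-5p at −0.51 ± 0.14 (SE, adjusted p = 0.0780), miR-1224-5p at −0.45 ± 0.11 (SE, adjusted p = 0.0634) and miR-6366 at −0.43 ± 0.13 (SE, adjusted p = 0.101). miR-8110 differed by −0.27 (95% interval −0.65 to 0.12) and miR-3960 by −0.14 (−0.55 to 0.26). miR-6769b-5p and miR-211-3p differed by −0.02 each, with intervals of −0.28 to 0.24 and −0.33 to 0.28. Blocked on slide row, the median over the 9 was −0.25. The fit within row 2 gave the same median, since both set G93A/G93A against 1 WT/WT array. Both comparisons use the same WT/WT arrays, so their likeness is in part that of the arrays shared.

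Between G93A/G93A and G93A/WT medium the median over the 9 was 0.28 (0.17 without G93A/G93A 2), with −0.10 over all 538, and all 9 lay above zero (58% of the 538 lay below it), although all 9 turned negative without scaling, with the median of the 538 then at −0.68. miR-6769b-5p stood at 11.57 ± 0.06 in G93A/G93A and 11.21 ± 0.02 in G93A/WT (SD, n = 3 each), a difference of 0.36 ± 0.10 (SE, adjusted p = 0.0649). It and miR-211-3p (0.28, adjusted p = 0.151) did not overlap between the groups, 2 of 9 against 15.6% of the 538. miR-8110 differed by 0.33 (95% interval −0.02 to 0.67), and miR-1224-5p and miR-6931-5p by 0.07 (−0.17 to 0.30) and 0.05 (−0.26 to 0.36). Blocked on slide row, the median over the 9 was 0.37. In that limma fit 0 of the 9 passed, as did 0 of all 538 in either direction. These groups share no slide row, so the row term rests on WT/WT 1 against WT/WT 2 alone. It cannot tell a row effect from the difference between those arrays.

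In a test of any difference among the 3 groups 1 of the 9 passed, miR-1224-5p, where 14.3% of the 538 did. Its moderated F was 11.4 (limma, adjusted p = 0.0447), and the other 8 did not pass, with adjusted p from 0.0671 for miR-6366 to 0.197 for miR-3960. At an unadjusted p under 0.05 it was 7 of the 9 and 34.9% of the 538. The call for miR-1224-5p lies near the threshold: over 21 alternatives its adjusted p ran from 0.0257 to 1, passing in 7, and blocked on slide row it was 0.134.

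The pair miR-3960 and miR-2861, whose hairpins neighbour each other, did not keep the steadiest ratio among the pairs of the 9. The SD of its log2 ratio over the 8 arrays was 0.12, place 11 from the smallest of 36 pairs, where miR-5126 and miR-2861 had 0.07, and as shares the pair had r = 0.253 (n = 8 arrays). The log2 ratio of miR-3960 to miR-2861 was 2.60 ± 0.09 in G93A/G93A, 2.58 ± 0.07 in G93A/WT (SD, n = 3 each) and 2.46 ± 0.22 in WT/WT (SD, n = 2), with differences of 0.14, 0.12 and 0.02 (exact permutation p = 0.4, 0.5 and 0.6). The 2 probes differ, so the ratio is no ratio of molecules. Of 12 miRNAs known to act on Runx2, the factor of their osteoblast loop, 7 were tested. Between G93A/G93A and WT/WT, 2 of these fell and none rose, miR-23a-3p (−0.53 ± 0.12, SE, adjusted p = 0.0437) and miR-205-5p (−5.12 ± 0.51, SE, adjusted p = 0.00301), which is also on the epithelial list described with the markers of other cells. Between G93A/WT and WT/WT none of the 7 passed in limma, and between G93A/G93A and G93A/WT miR-205-5p fell. The list's median was −0.26, −0.14 and −0.32 in the 3 comparisons, and miR-211-5p, on the list and from the hairpin of miR-211-3p, was detected on no array.

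Over the 8 arrays the log2 scaled signals of the 9 moved together, with pairwise r from 0.423 to 0.977, highest for miR-8110 with miR-5126. These share the scale factor of each array. As shares of the summed signal the pairs parted: miR-8110 and miR-2861 had r = 0.854 and miR-1224-5p and miR-6931-5p r = 0.801, whereas miR-211-3p had r = −0.859 with miR-6931-5p and −0.832 with miR-1224-5p. All pairs have n = 8 arrays and a common denominator, and are given without a p. Of the 414 other miRNAs detected on all arrays, those whose share was most like the summed share of the 9 were miR-540-3p (r = 0.574), miR-6947-5p (r = 0.493) and miR-7045-5p (r = 0.466; n = 8 arrays). miR-540-3p and miR-6947-5p were dim, with a mean log2 scaled signal of 1.26 and 2.21 where the lowest value possible was 0.60, and miR-7045-5p had 9.58. Of these, miR-6947-5p passed in both comparisons with G93A/WT, with limma differences of −0.14 (adjusted p = 0.553), −0.62 (adjusted p = 0.0479) and 0.48 (adjusted p = 0.0373) in the 3 comparisons.

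Other miRNAs with G runs, and those next in brightness, are set beside the 9 here. The 97 other tested miRNAs with a run of at least 4 G had median differences of 0.01, −0.04 and 0.07 in the 3 comparisons, and 4, 3 and 7 of them rose while 0, 0 and 4 fell. The 50 next brightest miRNAs after the 9 and miR-206-3p had medians of −0.10, −0.23 and 0.09, and 0, 0 and 5 rose while 3, 0 and 1 fell. The 240 other tested miRNAs numbered 1000 or above had medians of 0.02, 0.03 and 0.03, and the 289 numbered below 1000 had −0.11, 0.08 and −0.20. In the authors' table, which lies on another scale, the median over the 9 was −0.15 and that over all its miRNAs −0.03 between G93A/WT and WT/WT.

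Of the marker lists of other cells, the epithelial one had a lower summed share in G93A/G93A than in both other groups. Of 7 epithelial miRNAs, 0 to 1 were detected on the G93A/G93A arrays and 5 on each G93A/WT and WT/WT array, with summed shares of 0.000553% to 0.00404%, 0.0457% to 0.0707% and 0.0872% to 0.1%, and miR-200a-3p and miR-141-3p were detected on none. The 5 tested, miR-200b-3p, miR-200c-3p, miR-429-3p, miR-203-3p and miR-205-5p, fell in G93A/G93A against each other group, with log2 differences of −1.54 to −5.12 against WT/WT and −1.11 to −3.98 against G93A/WT, and none passed between G93A/WT and WT/WT. In G93A/G93A only miR-205-5p was detected, on 2 arrays. The others all lay there at the lowest value possible (log2 0.60, SD 0) and entered the test through the other groups. Their differences and adjusted p therefore depend on where that lowest value was set. Of 7 serum and erythroid miRNAs 5 were tested and none passed in limma, with summed shares of 1.43% to 2.10% in G93A/G93A, 1.83% to 2.19% in G93A/WT and 1.46% and 1.47% in WT/WT. Of 4 leukocyte and platelet miRNAs only miR-223-3p was detected, and it rose in G93A/G93A against WT/WT (0.52 ± 0.12, SE, adjusted p = 0.0433). Of 5 fibroblast miRNAs 4 were tested and miR-199a-5p fell in that comparison (−0.85 ± 0.17, SE, adjusted p = 0.0291), with summed shares of 0.224% to 0.326% in G93A/G93A, 0.310% to 0.451% in G93A/WT, and 0.287% and 0.327% in WT/WT. None of 4 tested muscle miRNAs passed in any comparison. The part of these cells in the differences of the 9 was not tested.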

How the data were processed

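Small RNA from culture medium was measured on 1-colour Agilent mouse miRNA arrays, 8 arrays on 1 slide. Per the file headers, the deposited gene files hold a total signal per miRNA, an intensity on a linear scale, with its error and a detection flag, and undetected miRNAs are listed at 0.1. No source used here gives the background method. A second deposited table holds the authors' processed intensity values for 492 mouse miRNAs. It is linear by its values. How it was normalized is not stated in the labels or headers, and it served as an alternative.

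Per array, signals were divided by their 75th percentile, taken over 423 mouse miRNAs that every array detected, and brought to a common level (factors 0.593 to 1.44). A floor of 1.52 units (log2 0.60) was set at the typical lowest detected signal, and log2 was taken. The 538 miRNAs detected on at least 2 arrays were fitted with lmFit and eBayes of limma 3.58.1 (R 4.3.3), all 3 groups giving 1 spread with 1.96 prior degrees of freedom. P-values were adjusted by Benjamini-Hochberg over all 538, at a threshold of 0.05. Every adjusted p of a miRNA and every SE of a difference is from this fit, unless an alternative is named. Shares, ratios and sums were compared with exact permutation tests over arrays, two-sided. The fit was tested on simulated data. Precision is limited by the 2 or 3 arrays in a group.

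The named miRNAs are the 9, miR-206-3p, the 3 next in brightness, the opposite hairpin arms, the 3 likest in summed share, and, within lists, those that passed or the brightest 2. Marker miRNAs detected on no array, miR-1a-3p, miR-133a-3p and miR-3091-3p were named outside this rule, after their values were seen. The 9 and the lists were chosen with earlier results of these data known. Mature sequences, hairpins and overlapping genes are from RefSeq tables of GRCm38.p6: 1608 array miRNAs and 8 of the 9 matched by name. Scaling, values, filter, floor, slide row, replicate number, samples in the fit and single arrays were varied.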

Additional observations from a re-analysis of the deposited data

Results flagged for a closer look

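Outside the mouse miRNAs, 2 of the 10 control features detected on all arrays were higher in a mutant-containing group than on both WT/WT arrays after scaling. Control feature hur_4 averaged 1201 scaled units in G93A/G93A and 1227 in G93A/WT, where WT/WT lay at 1014 and 1046. Control feature hur_6 averaged 364.9 scaled units in G93A/WT, where WT/WT lay at 298 and 302, and it was lower than in WT/WT on all G93A/G93A arrays (181 to 270). The bright corner feature was lower in both mutant-containing groups than on both WT/WT arrays, scaled and unscaled. Between the 2 WT/WT arrays, control feature dmr_3 ran from 255 to 5090 scaled units and dmr_6 from 46.7 to 1320. On the mutant-containing arrays they reached at most 1052 and 238. The bearing of this on the comparisons with WT/WT was not tested. A control feature is placed on the array for quality checks. None was used in a comparison, apart from the summed share with control features in the denominator.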

How the results depend on the processing

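Among the choices that can change a difference of the 9, the directions hung on the scaling most, and no cause of a change was tested. Of 612 values of the 9 under alternatives, 518 kept their direction and their side of the threshold, 61 turned, 18 newly passed and 15 became exactly 0, the last under quantile normalization for miRNAs of the same rank on every array. Changes of filter or floor, or of arrays outside a comparison, leave a difference of the 9 as it was and can only move its p. Against WT/WT, blocking on slide row repeats the fit with 1 WT/WT array left out. The 518 therefore hold values fixed in advance and are no measure of robustness. Without scaling, G93A/WT minus WT/WT was 0.177 for miR-8110, 0.35 for miR-3960, 0.325 for miR-5126, 0.258 for miR-1224-5p, 0.204 for miR-6931-5p, 0.227 for miR-2861, 0.393 for miR-6769b-5p, 0.465 for miR-211-3p and 0.226 for miR-6366, where all miRNAs shifted by 0.79, and G93A/G93A minus G93A/WT was −0.279, −0.331, −0.319, −0.542, −0.556, −0.352, −0.25, −0.326 and −0.488 in the same order of miRNAs, where all shifted by −0.68. G93A/G93A minus WT/WT turned for miR-3960 (0.019), miR-5126 (0.0056), miR-6769b-5p (0.143) and miR-211-3p (0.139) without scaling, and by the same amounts when scaled on the sum of all signals. Scaling on that sum also turned miR-211-3p in G93A/WT minus WT/WT (0.045) and miR-1224-5p (−0.122), miR-6931-5p (−0.136) and miR-6366 (−0.068) in G93A/G93A minus G93A/WT. Scaling on the sum without the 9 gave miR-6769b-5p 0.016 and miR-211-3p 0.012 (G93A/G93A minus WT/WT), and miR-1224-5p −0.0032 and miR-6931-5p −0.017 (G93A/G93A minus G93A/WT). With number classes centred these were 0.036, 0.076, −0.034 and −0.047. The authors' deposited table gave miR-8110 0.0071, miR-3960 0.092, miR-5126 0.062, miR-6769b-5p 0.148 and miR-211-3p 0.139 (G93A/G93A minus WT/WT), and miR-1224-5p −0.076 and miR-6931-5p −0.078 (G93A/G93A minus G93A/WT). Quantile normalization gave miR-6769b-5p 0.20 and miR-211-3p 0.167 (G93A/G93A minus WT/WT), 0.087 and 0.056 (G93A/WT minus WT/WT), and miR-6366 −0.037 (G93A/G93A minus G93A/WT). With the slide row as a block, and within the row, G93A/G93A minus WT/WT was 0.103 for miR-6769b-5p and 0.054 for miR-211-3p. Leaving out 1 array at a time, G93A/G93A minus WT/WT ran from −0.144 to 0.103 for miR-6769b-5p and from −0.104 to 0.054 for miR-211-3p, and G93A/G93A minus G93A/WT from −0.013 to 0.129 for miR-1224-5p and from −0.049 to 0.181 for miR-6931-5p.

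The count of the 9 that passed between G93A/G93A and WT/WT was 0, and 1 (miR-1224-5p) when scaled on the sum without the 9, with number classes centred or with double the floor. Under these settings 26, 17 and 23 of the 538 passed as lower. Between G93A/WT and WT/WT it was 0, and 2 with scaling on the median or double the floor (miR-1224-5p and miR-6366), 2 with only those groups in the fit (miR-1224-5p and miR-6931-5p), and 0 to 6 without single arrays. Of the 538, 11 passed as lower with the median, 22 with double the floor and 16 with only those groups. It was 27 without G93A/G93A 3, the fit that gave 6 of the 9. Between G93A/G93A and G93A/WT it was 0, and 1 (miR-6769b-5p) with scaling on the median or double the floor, and 0 to 1 without single arrays (miR-5126, without G93A/G93A 3). Under these settings 28, 36 and 55 of the 538 passed as higher. In the test among the 3 groups it was 1, and 3 with scaling on the median, 2 with double the floor, 0 with quantile normalization, no scaling, the sum of all signals, the authors' table, no filter, the lower floor or the slide row as a block, and 0 to 5 without single arrays (5 without G93A/G93A 3, 0 without each of the G93A/WT and WT/WT arrays). For that test the count over all miRNAs is not given under alternatives, so these counts of the 9 have no share to be read against. Over all tested miRNAs 46, 21 and 57 passed in the 3 comparisons, against 7 to 57, 0 to 130 and 0 to 149 over alternatives. No summed share turned: without single arrays the differences ran from −4.09 to −1.98, from −7.94 to −5.38 and from 2.05 to 4.69 percentage points. With miR-8110 out of the denominator alone they were −6.22, −12.7 and 6.47, but the sum of the 9 still held it, so this is no share of a whole. With miR-8110 left out of the 9 alone they were −1.62, −2.78 and 1.16. Left out of both, the mean share was 49.0% in G93A/G93A, 46.1% in G93A/WT and 52.2% in WT/WT.

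Same-numbered arrays did not deviate together throughout (r of deviations −0.194, −0.202 and −0.347 between G93A/G93A and G93A/WT, −0.167 and −0.218 between G93A/G93A and WT/WT, but 0.151 and 0.211 between G93A/WT and WT/WT), so the numbers were not taken to pair the samples. With the replicate block 0 of the 9 passed in each comparison. Of the 538, 2, 8 and 17 then passed as higher and 8, 0 and 20 as lower in the 3 comparisons. In the test among the 3 groups 0 of the 9 passed, again with no count over all miRNAs to read it against. With this block miR-211-3p lay at 0.0024 between G93A/G93A and WT/WT, and the summed shares differed by −1.98, −6.69 and 3.35 percentage points. Scaling on the 75th percentile over all mouse miRNAs gave no value, because that percentile was an undetected signal on 3 arrays. G93A/G93A and G93A/WT share no slide row. Brightness sets no limit of detection here, since all 9 were detected on every array, but 2 WT/WT arrays limit every comparison with WT/WT.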
